A study of Mus musculus with 12 samples.

Results

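The 34 genes described here encode the 2 mTOR kinase complexes, the TSC complex and Rheb, the Rag GTPases with Ragulator, the folliculin complex, GATOR1, GATOR2, 3 amino acid sensors and the 2 S6 kinases. They were chosen by name for their place in the mTORC1 and amino acid sensing pathway, with earlier results of these data known. All 34 were found among the 24421 genes of the count table, and all 34 passed the low-count filter that kept 14497 genes for testing.

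The samples are mouse E14 embryonic stem cells, an established line, whose genotype is given as wild type with dCas_Alkbh5, that is, a dead Cas protein joined to the m6A demethylase Alkbh5. Cells of all groups were grown on gelatin in FBS/LIF, received 1 µg of guide plasmid and 3 days of selection in blasticidin (8 µg/mL), and then spent 5 days paused in the mTOR inhibitor INK128 at 200 nM. The groups are a non-targeting guide (NT-gRNA, here NT), Mycn-gRNA2 and Mycn-gRNA3, with 4 polyA RNA libraries each. There was no library without INK128, so every comparison is between cells whose mTOR kinase was inhibited, and the labels do not say whether the fusion line is 1 clone or whether replicates are separate cultures. The p-values therefore cover only the spread among these libraries, part of which can be technical.

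mTORC1 is a kinase complex on the lysosome surface that promotes protein synthesis and growth when amino acids and growth factors are present. Amino acids act through the Rag GTPases, which Ragulator anchors to the lysosome and which recruit mTORC1 there. GATOR1 switches the Rags off, GATOR2 opposes GATOR1, and sensors such as the sestrins hold GATOR2 back when leucine is scarce. Growth factors act through the TSC complex, which keeps the activator Rheb inactive. In embryonic stem cells, inhibition of mTOR brings about a reversible paused state that resembles embryonic diapause.

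Levels are given as CPM, counts scaled to the endogenous library size with TMM factors, which show a gene relative to the rest of the transcriptome. The text also gives levels per ERCC read, that is, relative to synthetic RNAs added to the RNA extracted from 200000 cells per sample. Libraries held 17248564 to 33819855 endogenous reads, and a member had between 141 and 5197 reads in a library. Mycn itself, the gene the guides name, rose from 141 ± 4.17 CPM in NT (SD, n = 4) with both guides by a log2 difference of 0.86 (edgeR adjusted p = 3.39e-06, 8 of 8 guide libraries above all NT libraries). Alkbh5, whose own reads and those of the fusion may both be counted, differed by -0.00 (adjusted p = 0.967). The 10 embryonic stem cell markers were all detected, with summed levels of 4883 to 5446 CPM in NT, 3831 to 4542 CPM with Mycn-gRNA2 and 4604 to 4705 CPM with Mycn-gRNA3, and 4 of the 10 were called lower with both guides. Of 15 primitive endoderm markers 10 were called higher and 1 lower, and their sum was 364 to 479 CPM in NT, 494 to 642 CPM with Mycn-gRNA2 and 553 to 645 CPM with Mycn-gRNA3. Of 12 fibroblast markers, 8 could be tested, of which 5 were called higher and 1 lower. Their summed level was 19.6 to 24.8 CPM in NT, 23.4 to 29.6 CPM with Mycn-gRNA2 and 24.9 to 28.1 CPM with Mycn-gRNA3, and Lum and Postn had no read in any NT library. The 4 Y-linked genes together gave 0.0448 to 0.181 CPM in the NT libraries and 32.4 to 83.7 CPM in the guide libraries, so the NT cultures and the guide cultures differ in more than the guide. The part of these differences in the results below was not tested, and a change in the mix of cells cannot be told apart from a change of RNA within cells in such bulk libraries.

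Mycn-gRNA2 replicate 1 stood apart from its group. The median absolute distance of the members from the mean of the other libraries of the group, on the log2 scale, was 0.209 for this library and at most 0.102 for any other library of the 3 groups. Over all genes with a mean log2 CPM above 3 the same distance was 0.264 for this library and at most 0.146 for any other, so its deviation was not particular to the members. Mycn-gRNA2 replicate 1 was the lowest or the highest of the 8 guide libraries for 24 of the 34 members, and the share over all genes was not computed. Results that turn on it are given with and without it.

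Regulatory sequence was examined first, because N-Myc and the lysosomal transcription factors TFEB and TFE3 all bind E-box motifs. RefSeq promoter windows of build GRCm38.p6, which run from 250 bases before to 50 bases after the start site, were matched by symbol for 29 of the 34 members. The E-box CACGTG, which reads the same on both strands, was present in the windows of 6 of the 29 members (20.7%) and in 7.15% of all 32851 windows. The share of members counts genes, and the share of all windows counts windows, which were not limited to genes that passed the low-count filter. These shares are therefore not of like sets, and their difference was not tested. Its extended form GTCACGTG, searched on both strands and overlapping the E-box, was found in the window of Rheb alone among the members and in 2.25% of all windows. The C/EBP-ATF element TGATGCAA was found in no member window and in 0.895% of all windows. The stretches below show each E-box (capitals) with its flanks, 5′ to 3′ on the strand of the gene, and are printed because these 6 members can be followed through the results. Positions are chr13:43171532-43171571 (minus strand) for Tbc1d7, chr5:24842435-24842474 (minus strand) for Rheb, chr4:123917304-123917343 for Rragc, chr7:101905752-101905791 for Lamtor1, chr5:138255345-138255384 for Lamtor4 and chr11:54438087-54438126 for Fnip1, the last 4 on the plus strand. The Lamtor4 stretch holds 2 sites.
Tbc1d7: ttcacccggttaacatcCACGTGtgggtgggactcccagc
Rheb: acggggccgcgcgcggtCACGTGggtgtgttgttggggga
Rragc: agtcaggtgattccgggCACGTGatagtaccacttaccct
Lamtor1: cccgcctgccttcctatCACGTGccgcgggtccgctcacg
Lamtor4: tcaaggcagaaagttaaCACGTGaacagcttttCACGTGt
Fnip1: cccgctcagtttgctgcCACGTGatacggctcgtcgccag

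The E-boxes lay close to the start sites, from 53 bases before it in Tbc1d7 to 120 bases before it in Lamtor4. Of these 6 members, Lamtor1 was the only one called in the comparison of both guides with NT relative to the transcriptome. Its call was lost in several of the alternatives given below. Lamtor4 was called with Mycn-gRNA3 alone against NT. Without Mycn-gRNA2 replicate 1, both guides against NT also gave calls of Rheb, Lamtor4 and Fnip1. Rragd and Lamtor5, the members with the largest rises, had none of the 3 motifs in their windows. Whether the motifs bear on any of these changes was not tested. Their 250 bases before the start site are printed for comparison, at chr4:32982748-32982997 for Rragd and chr3:107278608-107278857 for Lamtor5, both on the plus strand.
Rragd: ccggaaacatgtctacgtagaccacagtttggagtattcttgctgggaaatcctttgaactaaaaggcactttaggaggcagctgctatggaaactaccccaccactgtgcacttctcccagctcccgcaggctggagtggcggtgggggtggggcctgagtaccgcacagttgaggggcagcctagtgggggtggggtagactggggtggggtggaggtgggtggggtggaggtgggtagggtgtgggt
Lamtor5: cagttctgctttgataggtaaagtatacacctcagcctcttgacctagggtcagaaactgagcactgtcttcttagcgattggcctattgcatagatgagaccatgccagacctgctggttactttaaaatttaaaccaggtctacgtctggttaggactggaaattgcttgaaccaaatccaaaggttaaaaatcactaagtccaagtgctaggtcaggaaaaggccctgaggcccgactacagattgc

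In paused NT cells every member was expressed. Levels per length, computed here as TPM from the counts and annotated exon lengths, spanned 36.2-fold, from 4.38 ± 0.428 TPM for Slc38a9, a lysosomal arginine sensor, to 158 ± 7.32 TPM for Sec13, which GATOR2 shares with the nuclear pore and the COPII coat (SD, n = 4). Rheb, the direct activator of mTORC1, came next at 124 ± 6.61 TPM, followed by Lamtor2 at 103 ± 12.4 TPM and Rraga at 102 ± 4.79 TPM, and the ranges of the last pair overlapped. The median over the 8 Rag and Ragulator genes was 70.7 TPM. It was 35.8 TPM over the 6 genes of the mTOR complexes, 35.0 TPM over the 5 genes of GATOR2, 20.8 TPM over the 3 genes of GATOR1 and 11.7 TPM over the 3 amino acid sensors. The kinase Mtor stood at 44.4 ± 2.82 TPM, the mTORC1 scaffold Rptor at 36.2 ± 0.553 TPM and the mTORC2 scaffold Rictor at 35.3 ± 2.60 TPM, with overlapping ranges for Rptor and Rictor. Mlst8, a subunit common to both mTOR complexes, was the lowest of the 6 genes of these complexes at 10.5 ± 0.707 TPM. Among the Rag GTPases, Rragc was at 58.4 ± 1.79 TPM and its alternative Rragd at 16.3 ± 1.12 TPM. Rraga encodes a protein nearly identical to that of Rragb, which is not a member. Whether reads were divided between these genes or lost in counting was not tested.

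**Figure D1:**
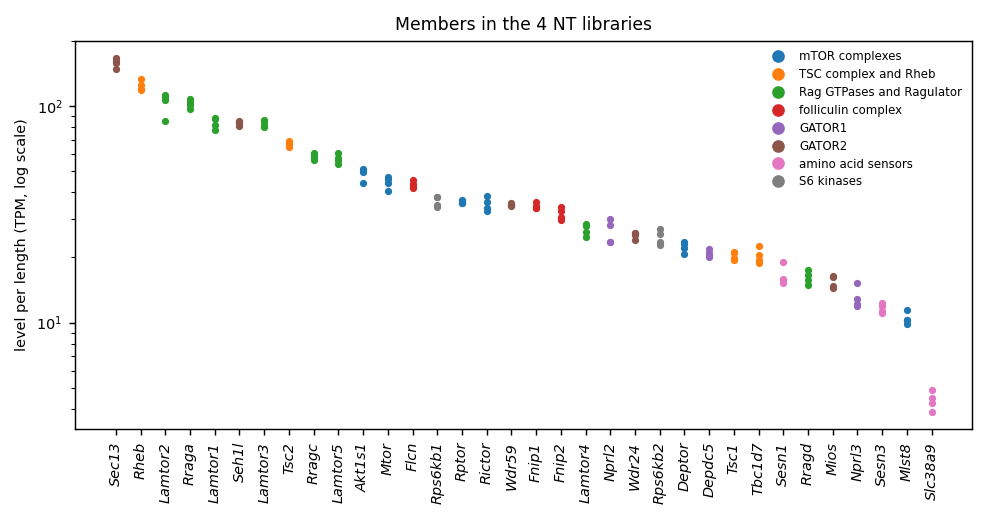
Level per length (TPM, log axis) of the 34 members in the 4 NT libraries, one point per library, ordered by mean and coloured by complex. Sec13 and Rheb are the highest at means of 158 and 124 TPM, Slc38a9 is the lowest at 4.38 TPM, and the Rag and Ragulator genes lie mostly in the upper part of the order.

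With both guides against NT, relative to the transcriptome, 7 of the 34 members rose and 3 fell, and 24 did not pass the test. Over all genes tested, 14.9% were called higher and 13% lower, so the members were called about as often as genes in general (27.8% in either direction). The median log2 difference over the members was 0.01, beside -0.00 over all genes. The members that rose were Rragd and Lamtor5, Lamtor1 and Lamtor3 of Ragulator, Mios and Wdr24 of GATOR2, and the sestrin Sesn3. Those that fell were the mTOR inhibitor Deptor, the mTORC2 subunit Rictor and the GATOR2 subunit Wdr59, whose differences per ERCC read were 0.09, 0.12 and 0.18 and did not pass. All 8 guide libraries lay above all NT libraries for 6 members and below them for 2, beside 8.55% and 6.87% of all genes.

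**Figure D2:**
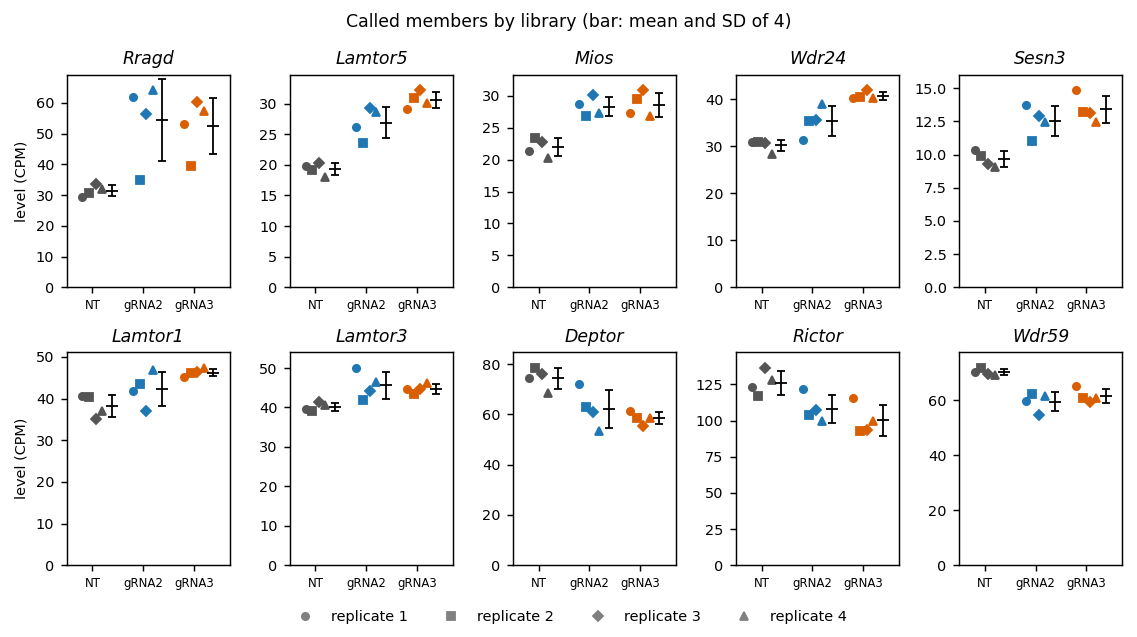
Level (CPM, linear axis from 0) of the 10 members called with both guides against NT, by library. Symbols mark replicates 1 to 4 of each group, and bars give the mean and SD of the 4 libraries. Rragd is between 29.6 and 33.7 CPM in NT and between 35.1 and 64.1 CPM in the guide libraries, with replicate 2 the lowest of each guide.

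The Rag GTPases and Ragulator gave 4 higher and 0 lower calls of 8 genes, and their median log2 difference was 0.23. Rragd, a Rag GTPase that pairs with RagA or RagB and is encoded on chromosome 4 (positions 32982998 to 33022180, mm10), stood at 29.6, 30.6, 33.7 and 31.9 CPM in NT replicates 1 to 4. It stood at 61.8, 35.1, 56.6 and 64.1 CPM with Mycn-gRNA2 and at 53.1, 39.4, 60.3 and 57.3 CPM with Mycn-gRNA3. All 8 guide libraries were above all NT libraries, and replicate 2 of each guide was close to the NT range. The log2 difference was 0.77 (SE 0.147, adjusted p = 0.00184), with 0.79 for Mycn-gRNA2 (adjusted p = 0.00528) and 0.74 for Mycn-gRNA3 (adjusted p = 0.00534), and it kept its call without any 1 of the 12 libraries (adjusted p at most 0.00928). Rragc, which takes the same place in the Rag heterodimer, was 58.4 ± 2.5 CPM in NT and 62.4 ± 9.19 CPM in the 8 guide libraries (SD), a difference that did not pass the test (0.10, adjusted p = 0.513). Rraga did not pass either (-0.01, adjusted p = 0.875).

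Lamtor5, a subunit of the Ragulator scaffold (chromosome 3, positions 107278858 to 107284081, mm10), was 19.9, 19.1, 20.3 and 18.1 CPM in NT. It was 26.1, 23.6, 29.3 and 28.7 CPM with Mycn-gRNA2 and 29.1, 30.9, 32.2 and 30.1 CPM with Mycn-gRNA3, with no overlap between guide and NT libraries. The rise of 0.57 (SE 0.0703) had the lowest adjusted p of the members, 7.19e-05, and remained called without any 1 library (at most 0.000634). Lamtor1, which anchors Ragulator in the lysosome membrane, rose by 0.21 (adjusted p = 0.0325, 7 of 8 guide libraries above all NT libraries). Lamtor3, another subunit, rose by 0.17 (adjusted p = 0.0387, 8 of 8). These last calls were close to the threshold: leaving out any of 6 libraries ended that of Lamtor1 (adjusted p 0.0511 to 0.123), namely NT replicates 3 and 4, Mycn-gRNA2 replicate 4 and Mycn-gRNA3 replicates 2, 3 and 4. Leaving out any of 9 libraries ended that of Lamtor3 (0.05 to 0.106), all but Mycn-gRNA2 replicates 1 and 2 and Mycn-gRNA3 replicate 1.

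Lamtor2 and Lamtor4 did not pass with both guides (0.25, adjusted p = 0.125, and 0.32, adjusted p = 0.112), and this turned on Mycn-gRNA2 replicate 1. Lamtor4 was 9.75, 8.88, 9.34 and 8.27 CPM in NT and 12.4 to 12.9 CPM with Mycn-gRNA3, but 6.13, 10.1, 11.4 and 12.5 CPM with Mycn-gRNA2. Lamtor2 was likewise lowest of all 12 libraries in Mycn-gRNA2 replicate 1, at 17.6 CPM, and 25.1 to 31.5 CPM in the other 7 guide libraries, all above the NT range of 18.5 to 24.4 CPM. Without that library the differences were 0.31 for Lamtor2 (adjusted p = 0.00432) and 0.41 for Lamtor4 (adjusted p = 0.000666).

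Gene length moved with these results. All 5 Lamtor genes, and Tbc1d7, have annotated exon lengths of at most 1300 bases. Among all genes of that length with a mean log2 CPM above 3, the median difference between the guides and NT was 0.10, and 16.5% were called higher and 5.73% lower. Among genes over 5000 bases, a class that holds 13 members including Rictor, Deptor, Wdr59 and Rragd, the median was -0.07, and 9.73% were called higher and 21.4% lower. The median of genes up to 1300 bases minus that of genes over 5000 bases, each library set against the NT mean, was -0.10 to 0.08 in NT, -0.21 in Mycn-gRNA2 replicate 1 and 0.11 to 0.34 in the other 7 guide libraries. With a length trend per library as an offset, an alternative chosen after seeing the data, Lamtor1 (0.15, adjusted p = 0.124) and Lamtor3 (0.11, adjusted p = 0.286) were no longer called, while the other 8 calls held, that of Rictor at -0.18 in place of -0.28. With Mycn-gRNA3 alone the offset ended the calls of Lamtor1, Lamtor2, Lamtor4, Wdr59 and Rps6kb1 (adjusted p = 0.135, 0.137, 0.065, 0.145 and 0.0592), and with Mycn-gRNA2 alone that of Deptor (adjusted p = 0.0548).

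**Figure D3:**
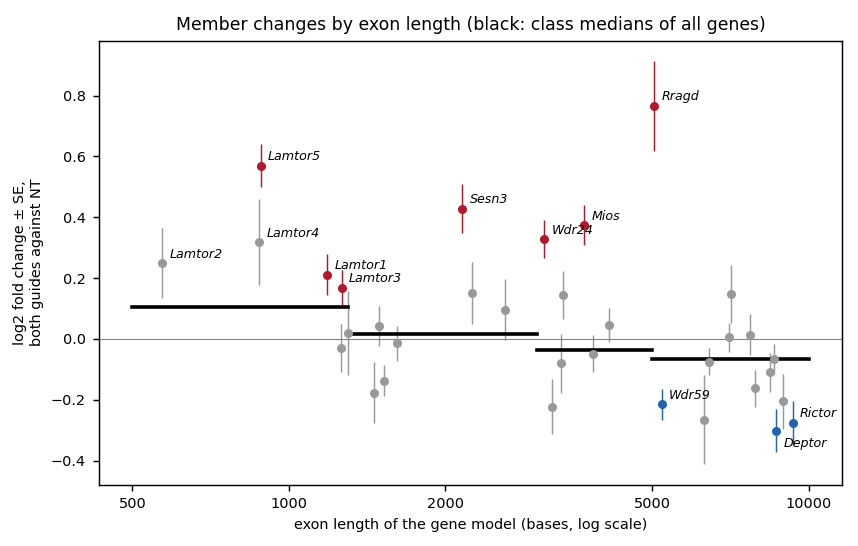
Log2 difference of both guides against NT with its SE (vertical axis, relative to the transcriptome) against exon length in bases (log axis) for the 34 members. Red points were called higher, blue points lower and grey points did not pass, and black lines are medians of all genes of a length class with a mean log2 CPM above 3, falling from 0.10 up to 1300 bases to -0.07 over 5000 bases; Lamtor5, Sesn3, Mios, Wdr24 and Rragd lie furthest above these lines.

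GATOR2, the complex that opposes GATOR1, had 2 higher and 1 lower call of 5 genes. Mios (chromosome 6, positions 8209227 to 8236273, mm10) was 21.4, 23.3, 22.8 and 20.3 CPM in NT, 28.8, 26.8, 30.1 and 27.4 CPM with Mycn-gRNA2 and 27.3, 29.4, 30.9 and 26.9 CPM with Mycn-gRNA3. Every guide library exceeded every NT library, and the difference of 0.37 (SE 0.0658, adjusted p = 0.00101) was nearly equal for the guides at 0.37 and 0.38. Wdr24 (chromosome 17, positions 25823627 to 25828730, mm10) was 30.9, 30.9, 30.6 and 28.4 CPM in NT, 31.3, 35.3, 35.6 and 39.0 CPM with Mycn-gRNA2 and 40.1, 40.5, 41.9 and 40.2 CPM with Mycn-gRNA3. Its guide libraries also lay above all NT libraries, Mycn-gRNA2 replicate 1 by the least, and it rose by 0.33 (SE 0.0624, adjusted p = 0.00172). Both calls held without any 1 library (adjusted p at most 0.00626 for Mios and 0.00997 for Wdr24).

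Wdr59, the GATOR2 subunit that fell, is on chromosome 8 (positions 111448784 to 111522107, mm10, minus strand) and stood at 70.4, 71.6, 69.6 and 69.0 CPM in NT. It stood at 59.6, 62.1, 54.4 and 61.5 CPM with Mycn-gRNA2 and at 65.2, 60.8, 59.4 and 60.6 CPM with Mycn-gRNA3. All guide libraries were below all NT libraries, and the fall was 0.22 on the log2 scale (a difference of -0.22, SE 0.0516, adjusted p = 0.00705). The genes of chromosome 8 as a whole had a median difference of -0.12 and those of chromosome 1 of -0.13, beside -0.07 to 0.03 on the other 17 autosomes, and the part of this in the fall of Wdr59 was not tested. The subunits that GATOR2 shares with the nuclear pore did not pass, Seh1l at 0.05 (adjusted p = 0.571) and Sec13 at 0.02 (adjusted p = 0.931). Sec13 was 46.4 CPM in Mycn-gRNA2 replicate 1 and 72.5 to 93.0 CPM in the other 7 guide libraries, around an NT range of 73.3 to 82.0 CPM.

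None of the 3 GATOR1 genes passed the test with both guides. This complex is the GTPase-activating brake on RagA and RagB. Depdc5 differed by -0.11 (adjusted p = 0.223), Nprl2 by -0.18 (adjusted p = 0.208) and Nprl3 by -0.22 (adjusted p = 0.0799). Nprl3 was 19.0, 15.8, 14.5 and 14.9 CPM in NT, and 6 of the 8 guide libraries were below that range. Nprl2 reached an adjusted p of 0.0499 without Mycn-gRNA2 replicate 1.

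Of the amino acid sensors, Sesn3 rose and the others did not pass. Sesn3 encodes a sestrin, a family that binds GATOR2 and includes leucine sensors and stress-induced members. It was 10.4, 9.87, 9.26 and 9.10 CPM in NT, 13.7, 11.0, 12.9 and 12.5 CPM with Mycn-gRNA2 and 14.8, 13.2, 13.2 and 12.5 CPM with Mycn-gRNA3. The groups did not overlap, and the difference was 0.43 (SE 0.0816, adjusted p = 0.00175, at most 0.00986 without any 1 library). Its paralog Sesn1 differed by -0.08 (adjusted p = 0.571). The lysosomal arginine sensor Slc38a9 differed by -0.21 (adjusted p = 0.11), and by -0.24 without Mycn-gRNA2 replicate 1 (adjusted p = 0.0285).

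The mTOR complexes gave 0 higher and 2 lower calls of 6 genes. Deptor, a protein that binds and inhibits mTOR (chromosome 15, positions 55112317 to 55259273, mm10), was 74.6, 78.3, 75.9 and 68.5 CPM in NT. It was 71.9, 62.7, 60.9 and 53.5 CPM with Mycn-gRNA2 and 61.2, 58.5, 55.3 and 58.6 CPM with Mycn-gRNA3, so that 7 of 8 guide libraries were below all NT libraries and Mycn-gRNA2 replicate 1 was within their range. It fell by 0.30 (a log2 difference of -0.30, SE 0.0707, adjusted p = 0.00618, at most 0.026 without any 1 library). Rictor, the scaffold that defines mTORC2 (chromosome 15, positions 6708381 to 6800400, mm10), was 123, 117, 136 and 128 CPM in NT, 122, 104, 107 and 99.7 CPM with Mycn-gRNA2 and 116, 92.5, 93.4 and 99.7 CPM with Mycn-gRNA3. Its replicate 1 was the highest of each guide, and the difference of -0.28 (SE 0.0729, adjusted p = 0.0122, 7 of 8 below all NT libraries) was no longer called without NT replicate 3 (-0.24, adjusted p = 0.0565).

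The kinase itself and the subunits of mTORC1 did not pass. Mtor was 146 ± 7.37 CPM in NT (SD, n = 4) and 140 ± 4.30 CPM over the 8 guide libraries (SD), a difference of -0.07 (adjusted p = 0.337). Rptor differed by 0.01 (adjusted p = 0.95) and had the narrowest NT range in proportion to its level, 96.4 to 98.4 CPM. Mlst8 differed by 0.14 (adjusted p = 0.195). Akt1s1, which encodes the mTORC1 inhibitor PRAS40, differed by 0.15 (adjusted p = 0.292). It was 31.9 CPM in Mycn-gRNA2 replicate 1 and 43.5 to 54.3 CPM in the other 7 guide libraries, and without that library it rose by 0.21 (adjusted p = 0.0194).

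The TSC complex and Rheb gave no call. Tsc1, Tsc2 and Tbc1d7, the subunits of the complex that inactivates Rheb, differed by 0.01, -0.07 and -0.03 (adjusted p = 0.899, 0.241 and 0.816). Rheb was 70.8, 73.3, 76.9 and 68.8 CPM in NT, 60.4, 63.5, 64.8 and 67.8 CPM with Mycn-gRNA2 and 68.7, 66.0, 67.0 and 68.5 CPM with Mycn-gRNA3. All guide libraries were below all NT libraries, the nearest by less than 0.1 CPM, and the difference of -0.14 missed the threshold (adjusted p = 0.0571). It was called with DESeq2 (adjusted p = 0.0261), with the length offset (0.0126) and without Mycn-gRNA2 replicate 1 (0.0346) or replicate 4 (0.0424).

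Among the S6 kinases, which phosphorylate ribosomal protein S6 downstream of mTORC1, Rps6kb1 differed by -0.16 (adjusted p = 0.0618) and Rps6kb2 by 0.04 (adjusted p = 0.675). Rps6kb1 was 106, 106, 114 and 113 CPM in NT and 91.6, 89.6, 90.8 and 92.1 CPM with Mycn-gRNA3, a fall of 0.27 that was called for that guide (a difference of -0.27, adjusted p = 0.0128), while per ERCC read it differed by 0.21 and did not pass. With Mycn-gRNA2 it was 121, 97.3, 107 and 96.9 CPM, replicate 1 being above all NT libraries, and did not pass (-0.06, adjusted p = 0.64).

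The folliculin complex, whose GTPase-activating action on RagC and RagD links the Rags to the transcription factor TFEB, gave no call. For Fnip1 and Fnip2, replicate 1 of each guide stood apart from the other guide libraries. Fnip1 was 82.6, 83.2, 80.8 and 85.6 CPM in NT, 102, 69.1, 57.6 and 63.1 CPM with Mycn-gRNA2 and 87.0, 60.1, 50.6 and 63.9 CPM with Mycn-gRNA3. Replicate 1 of each guide was thus above every NT library and the other 6 guide libraries were below every NT library. Its difference of -0.27 did not pass (adjusted p = 0.197), and was -0.37 without Mycn-gRNA2 replicate 1 (adjusted p = 0.0235). Fnip2 was 119 and 115 CPM in replicate 1 of the guides and 82.7 to 94.1 CPM in the other 6, within or near the NT range of 82.4 to 93.7 CPM. Rragc, the Rag on which this complex acts, was 78.7 and 74.8 CPM in the same libraries and 54.1 to 60.5 CPM in the other 6, beside 55.9 to 61.9 CPM in NT. Flcn was high in Mycn-gRNA3 replicate 1 only, at 74.1 CPM. In Mycn-gRNA2 replicate 1 it was 60.3 CPM, within the 56.0 to 63.3 CPM of the other 6 guide libraries.

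In all, both replicate 1 libraries of the guides lay above the other 6 guide libraries for 9 members (Rictor, Tsc1, Tsc2, Rragc, Fnip1, Fnip2, Depdc5, Sesn3 and Slc38a9) and below them for 2 (Rraga and Sec13). These members were singled out after their values were seen, and no test was made. The share of all genes with this pattern was not computed, so the counts cannot be read as a trait of these members. The labels give no batch, and the number 1 is not shown to mark a shared day or culture.

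**Figure D4:**
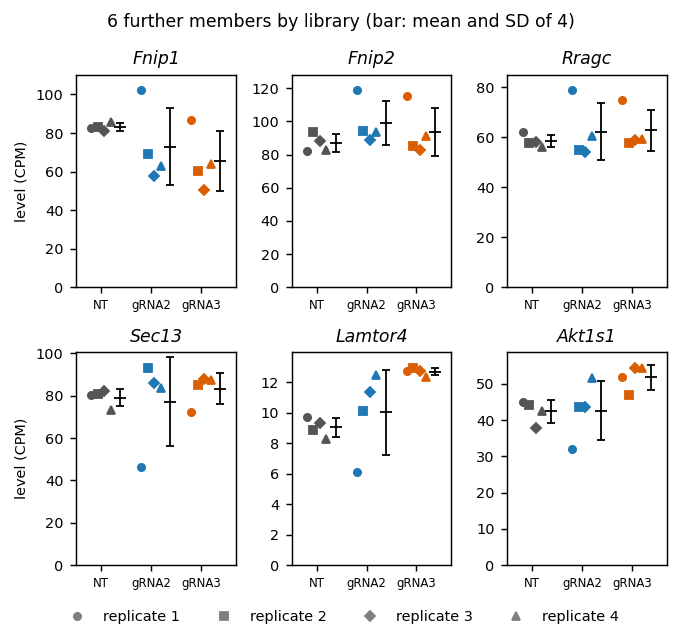
Level (CPM, linear axis from 0) of 6 members by library, with symbols for replicates 1 to 4 and bars for the mean and SD of the 4 libraries. Fnip1, Fnip2 and Rragc are highest in replicate 1 of each guide (102 and 87.0 CPM for Fnip1), and Sec13, Lamtor4 and Akt1s1 are lowest in Mycn-gRNA2 replicate 1 (46.4, 6.13 and 31.9 CPM).

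Without Mycn-gRNA2 replicate 1, the comparison of both guides with NT gave 10 higher and 8 lower members in place of 7 and 3. Its share of all genes called in either direction was then 42.1% in place of 27.8%. The members gained were Akt1s1, Lamtor2 and Lamtor4 among the rises and Rheb, Fnip1, Nprl2, Slc38a9 and Rps6kb1 among the falls. All 10 earlier calls were kept.

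The guides were also set against NT one at a time. These comparisons share the 4 NT libraries, so their values are given side by side without an overlap. With Mycn-gRNA2, 5 members were higher (Rragd, Lamtor5, Mios, Wdr24 and Sesn3) and 2 lower (Deptor and Wdr59), where 10.1% and 7.06% of all genes were called. All 4 Mycn-gRNA2 libraries were above all NT libraries for 6 members and below them for 3, beside 10.1% and 9.35% of all genes. With Mycn-gRNA3, 8 were higher (Rragd, Lamtor1, Lamtor2, Lamtor4, Lamtor5, Mios, Wdr24 and Sesn3), beside 14.8% of all genes. Another 4 were lower (Rictor, Deptor, Wdr59 and Rps6kb1), beside 12.2% of all genes. Here 10 members had no overlap on the high side and 5 on the low side, beside 20.8% and 18.5% of all genes. Lamtor5 rose by 0.48 with Mycn-gRNA2 and 0.66 with Mycn-gRNA3, Wdr24 by 0.23 and 0.43, and Sesn3 by 0.38 and 0.47. Lamtor2 differed by 0.11 and 0.39, and Lamtor4 by 0.15 and 0.49, only the second of each pair being called. Leaving out NT replicate 3, NT replicate 4 or Mycn-gRNA3 replicate 4 brought the 8 higher calls with Mycn-gRNA3 to 5. The 2 lower calls with Mycn-gRNA2 became 0 without Mycn-gRNA2 replicate 3 and 1 without any of NT replicates 1, 2 and 3 or any 1 Mycn-gRNA3 library. In fits without 1 library, 11.1% to 28.1% of all genes were called with Mycn-gRNA2 and 18.2% to 41.1% with Mycn-gRNA3, in either direction. The Wdr24 call with Mycn-gRNA2 (adjusted p = 0.0429) ended in 11 of 12 fits that each left out 1 library, all but the fit without Mycn-gRNA2 replicate 1, with adjusted p of 0.0514 to 0.119. That of Deptor with Mycn-gRNA2 ended in 10 of 12, all but those without NT replicate 4 or Mycn-gRNA2 replicate 1 (adjusted p = 0.0551 to 0.123). With Mycn-gRNA3, the call of Lamtor4 ended without any 1 NT or Mycn-gRNA3 library (8 of 12 fits), and those of Lamtor2 and Wdr59 ended without any 1 of these but Mycn-gRNA3 replicate 1 (7 of 12 each).

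Set directly against each other, Mycn-gRNA3 and Mycn-gRNA2 differed in no member by edgeR, and 0% of all genes were called (0 of 14497). DESeq2 called 0 members too. At an unadjusted p under 0.05 there were 7 members (Flcn, Rps6kb1, Wdr24, Seh1l, Rps6kb2, Lamtor5 and Akt1s1), beside 8.78% of all genes, with adjusted p of at least 0.549. The guide libraries did not overlap each other for 3 members, 2 higher and 1 lower with Mycn-gRNA3, beside 2.39% and 1.7% of all genes. The 95% intervals of the difference, Mycn-gRNA3 minus Mycn-gRNA2, ran from -0.42 to 0.31 for Rragd, from -0.15 to 0.18 for Mios, from 0.00 to 0.36 for Lamtor5, from 0.04 to 0.36 for Wdr24 and from -0.02 to 0.70 for Lamtor4. The intervals of Mtor (-0.12 to 0.14) and Rptor (-0.10 to 0.14) were among the narrower ones. Differences of these sizes were therefore not settled for most members by 4 libraries each.

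**Figure D5:**
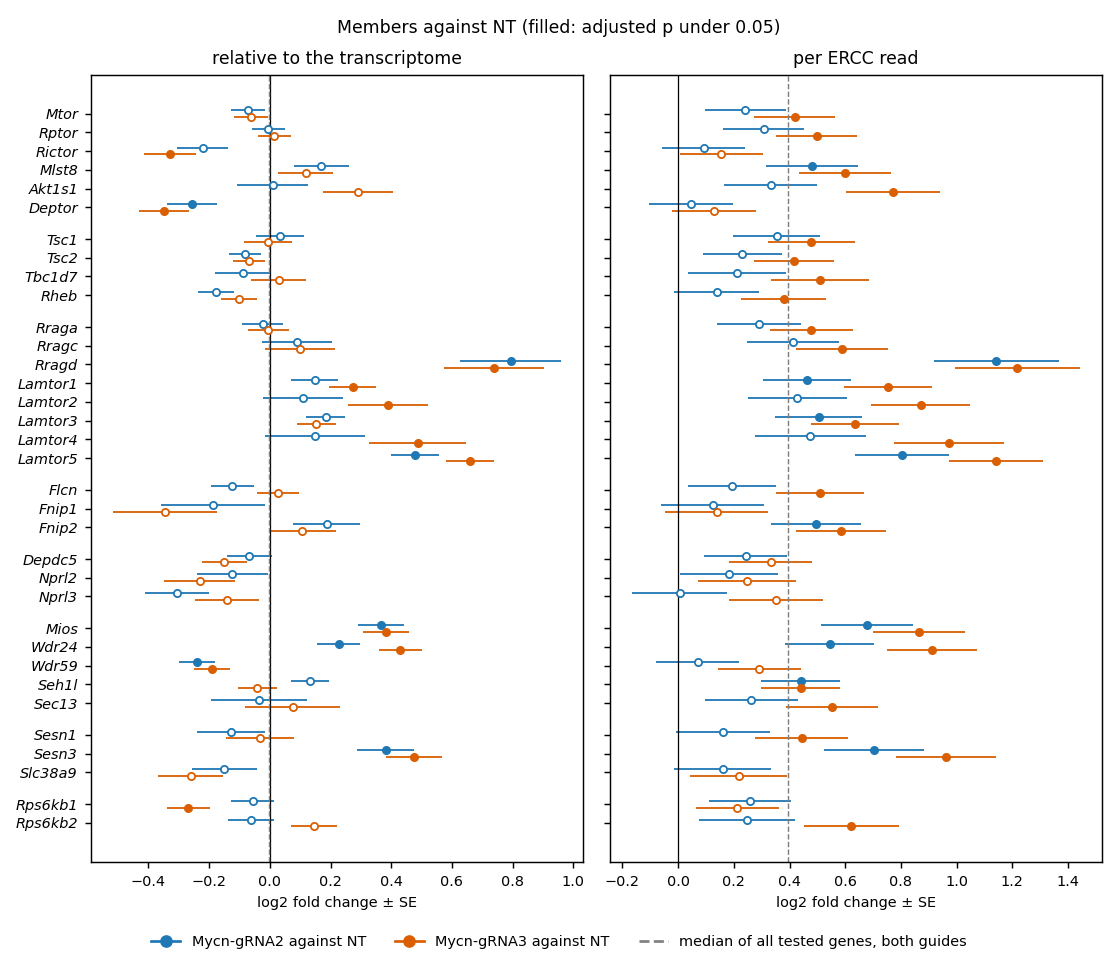
Log2 difference of each guide from NT with its SE for the 34 members, grouped by complex, relative to the transcriptome (left) and per ERCC read (right). Filled points had an adjusted p under 0.05, and the dashed line is the median of all genes for both guides, at -0.00 on the left and 0.39 on the right; on the right all members lie above 0 for each guide.

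Per ERCC read the whole transcriptome was higher in the guide libraries, and the members followed it. Endogenous reads per ERCC read were 61.3 to 72.1 in NT, 65.6 to 95.6 with Mycn-gRNA2 and 83.0 to 94.5 with Mycn-gRNA3, and the median gene was 0.39 higher on the log2 scale with both guides. The log2 difference was positive for all 34 members, with a median of 0.41, and 23 were called higher and 0 lower, beside 56.4% and 0.931% of all genes. Against the median gene, 18 members lay above it and 16 below. Because the spike-in was put into RNA after extraction, RNA per cell, cell number and recovery cannot be told apart on this scale.

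On this scale all 8 Rag and Ragulator genes were called higher, beside 56.4% of all genes. Their median difference was 0.63, beside 0.39 over all genes. The length offset was not fitted on this scale, so the part of gene length in the Lamtor values was not tested here. Rragd rose by 1.18 (adjusted p = 0.000151) from 2.06 ± 0.226 reads per 1000 ERCC reads in NT (SD, n = 4), with 7 of 8 guide libraries above all NT libraries. Lamtor5 rose by 0.97 (adjusted p = 3.99e-06) and Mlst8 by 0.54 (adjusted p = 0.00261), and these were the 2 members without overlap between guide and NT libraries, beside 11.5% of all genes. Deptor (0.09, adjusted p = 0.563), Rictor (0.12, adjusted p = 0.402) and Wdr59 (0.18, adjusted p = 0.224), the members that fell relative to the transcriptome, did not pass on this scale, and their differences were of the opposite sign and smaller than that of the median gene. The 3 GATOR1 genes gave 0 calls here as well (0.18 to 0.29). For single guides the counts were 10 higher with Mycn-gRNA2 (26.3% of all genes) and 25 higher with Mycn-gRNA3 (60.7%), with 0 lower for either (0.517% and 0.504%).

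Genes around the members were taken from 3 further lists. Of other sensors and complex parts, 14 of 17 were in the table and tested, and relative to the transcriptome 3 rose and 1 fell with both guides. Gatsl3, the gene of the arginine sensor CASTOR1, rose by 0.54 (adjusted p = 0.0206), the mTORC2-associated Prr5 by 0.27 (adjusted p = 0.0396) and its paralog Prr5l by 0.48 (adjusted p = 0.0407). Tti2, part of a chaperone complex for mTOR and related kinases, fell by 0.26 (a difference of -0.26, adjusted p = 0.0227), while per ERCC read it differed by 0.13 and did not pass. Each of these 4 calls was lost when 1 of several libraries was left out.

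Of 24 upstream regulators, 5 rose and 4 fell. The stress-induced mTORC1 inhibitor Ddit4 rose by 0.95 (adjusted p = 0.0162) and its paralog Ddit4l by 1.16 (adjusted p = 0.00786). Ddit4 was 3.35 CPM in Mycn-gRNA2 replicate 1, below the NT range of 4.98 to 6.90 CPM. It was 10.2 to 16.0 CPM in the other 7 guide libraries. Inpp5d, a phosphatase of the phosphoinositide signal, rose by 0.63 (adjusted p = 0.000915, 8 of 8 guide libraries above all NT libraries). The insulin receptor Insr (-0.28, adjusted p = 0.00877) and the kinase Pdpk1 that activates Akt (-0.23, adjusted p = 0.011) fell, while per ERCC read they differed by 0.12 and 0.16 and did not pass. The call of Ddit4 ended without NT replicate 2 or 4 and that of Pdpk1 without NT replicate 3.

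Of 24 targets and effectors 23 could be tested, of which 2 rose and 5 fell. Eef2k, the kinase that slows translation elongation and that S6 kinase inhibits, rose from 21.4 ± 1.91 CPM in NT (SD, n = 4) to 42.3 ± 7.70 CPM over the 8 guide libraries, by 0.98 (adjusted p = 4.64e-05). Stat3 (-0.39, adjusted p = 0.000321), the translation inhibitor Pdcd4 (-0.41, adjusted p = 0.00137), Mitf (-0.50, adjusted p = 0.00512), Eif4ebp3 (-0.41, adjusted p = 0.00525) and Tfeb (-0.53, adjusted p = 0.00997) fell. Per ERCC read these 5 differed by -0.14 (Tfeb) to 0.01 (Stat3), and none passed. Mitf and Tfeb encode related factors that mTORC1 keeps in the cytoplasm through Rag GTPases. Both were below all NT libraries in all 8 guide libraries. The shares called higher in the 3 lists, 21.4%, 20.8% and 8.7%, stand beside the 14.9% of all genes, and the shares called lower, 7.14%, 16.7% and 21.7%, beside the 13% of all genes.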

How the data were processed

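PolyA RNA of 12 libraries was measured. The submitters' processing notes name Trim Galore 0.4.0, featureCounts of Subread 1.5.0, edgeR 3.32.1 and build mm10. No source used here gives the aligner, annotation or strand setting, so reads where gene models overlap on mm10 (Rptor, Mlst8, Deptor, Tsc2, Nprl3, Wdr59, Seh1l and Akt1s1) cannot be assigned with certainty. The authors deposited raw counts per gene, used for all tests, and a table of log2 values for 12042 genes. The deposited log2 values equalled log2(count + 0.5) minus a constant per library, near the ERCC scaling, and served in an alternative.

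Tests on the counts used edgeR 4.0.16 under R 4.3.3 (quasi-likelihood, robust, filterByExpr, all 12 libraries in a fit, Benjamini-Hochberg over 14497 genes, threshold 0.05), with TMM factors or with ERCC totals as library sizes. Intervals of differences use 9 degrees of freedom. Exon lengths and positions are those of the gene models given with the deposited counts (mm10). Groups came from sample titles. On simulated counts for both guides against NT (14497 genes, 50 changed at each fold), 36% of genes changed 1.25-fold, 76% changed 1.5-fold and 100% changed 2-fold were recovered. Members, lists and the rule for named genes (all members, called genes of each further list up to 6 by adjusted p) were chosen with earlier results of these data known. A further gene that this rule names is not reported here. Alternatives were other factors, filters and fits, DESeq2 1.42.0, limma 3.58.1, replicates left out or paired, and a length offset.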

Additional observations from a re-analysis of the deposited data

Results flagged for a closer look

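In 6 of the 102 sets of 4 libraries, 1 for each member and group, a single library was far from the other 3 in CPM, its gap to the nearest being over the Dixon 95% limit as a share of the range. Chance flags about 1 in 20 such sets. These were Tsc2 in NT replicate 3 (157.97 CPM, the lowest), Rraga in Mycn-gRNA2 replicate 1 (55.7 CPM, the lowest), Rragc in Mycn-gRNA3 replicate 1 (74.8 CPM, the highest), Flcn in Mycn-gRNA3 replicate 1 (74.1 CPM, the highest), Wdr24 in NT replicate 4 (28.4 CPM, the lowest) and Sesn1 in NT replicate 2 (24.5 CPM, the highest). Wdr24 kept its call with both guides when NT replicate 4 was left out.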

How the results depend on the processing

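No member changed sign of a called value under any alternative. For both guides relative to the transcriptome, leaving out 1 library gave 5 to 10 higher and 2 to 8 lower calls, and 7 of the 10 called members kept their call each time (all but Rictor, Lamtor1 and Lamtor3). The share of all genes called in either direction was then 20.1% to 42.1%. Lower calls for both guides became 5 with DESeq2, 8 with replicates 3 and 4 alone and 9 without Mycn-gRNA2 replicates 1 and 2, where 25.3%, 43.6% and 44.6% of all genes were called in either direction. Replicates 1 and 2 alone gave 0 calls in either direction for both guides and for each guide, where 1.23%, 0.228% and 1.56% of all genes were called, and 2 higher per ERCC read, where 7.68% were. With Mycn-gRNA2, leaving out 1 library gave 4 to 6 higher and 0 to 3 lower, beside 11.1% to 28.1% of all genes in either direction. Replicates 3 and 4 alone gave 8 higher and 5 lower, beside 33% of all genes in either direction. The lower count was 4 with DESeq2 (17.5% of all genes in either direction), 1 with RLE factors (17.1%) and 1 with no low-count filter (10.9%). It was 0 with only the groups compared (10.9%) and 4 without Mycn-gRNA2 replicates 1 and 2 (29.8%). With Mycn-gRNA3, leaving out 1 library gave 5 to 10 higher and 3 to 6 lower, the length offset 5 higher, and replicates 3 and 4 alone 7 lower. The shares of all genes called in either direction were 18.2% to 41.1%, 26.5% and 40.7% in that order. Per ERCC read, leaving out 1 library gave 16 to 27 higher and 0 lower, and limma on the deposited log2 values 24. Of all genes, 38.2% to 70.2% and 61.9% were called in either direction. The causes were not tested.

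Replicate numbers were checked for pairing: deviations from the group means correlated at -0.08 to 0.64 over 12 same-numbered pairs and at -0.64 to 0.47 between unlike numbers, and 9 of 12 libraries correlated best with their own number, a hint of pairing from the data. No label gives the numbers a shared batch, and same-numbered pairs of NT with a guide reached as low as -0.08, so those comparisons were not paired. Between the guides all 4 pairs correlated at 0.17 or more, and with the replicate block their direct comparison still called 0 members and 0% of all genes, with 8 members at an unadjusted p under 0.05. With the replicate block, both guides gave 7 higher and 4 lower, Fnip1 being added (-0.31, adjusted p = 0.0341), and 19 higher per ERCC read. The shares of all genes called in either direction were 30.7% relative to the transcriptome and 51.9% per ERCC read. On simulated counts, 36% of 1.25-fold changes were recovered, and depth and replicate spread were not separated. Each gene was simulated with the same spread in all groups, and changed genes had a mean above 50 reads. In the data the spread was unequal. The median SD of log2 CPM, over genes with a mean above 3, was 0.174 with Mycn-gRNA2, 0.0879 in NT and 0.0841 with Mycn-gRNA3. In the simulation 50 of 14497 genes were changed at each fold, while 27.8% of genes were called in the data. The adjusted threshold therefore differed, and how many small differences were missed in the data cannot be read from the simulation.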
